A study of Homo sapiens with 38 samples.

Results

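The regions described here are the H3K27ac and H3K27me3 peaks around BCR on chromosome 22 and around ABL1 on chromosome 9 in K562 cells. A peak was a member where its midpoint lay in chr22:16000000-24000000 or chr9:133000000-134500000 of hg19, whatever its height or its caller. This gave 24049 of 1331138 peaks over all libraries, of which 21288 were on chromosome 22, against 17809 on the rest of that chromosome, and 2761 were on chromosome 9, against 50574 on the rest of it. The windows hold 7.70 and 1.35 Mb of known sequence, which is 0.287% and 0.0503% of the autosomes.

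The series profiled the marks by CUT&Tag, in which an antibody bound to chromatin in permeabilised nuclei directs a transposase to cut and tag the DNA beside it. All 38 libraries came from K562, a chronic myeloid leukaemia line. TSA libraries were made with ab177178 at 1:100, ab4729 at 1:100 and Diagenode at 1:100 and 1:50 (4 H3K27ac libraries at 15 cycles with SDS extraction and the deacetylase inhibitor Trichostatin A). The PCR and extraction libraries crossed 13 or 11 cycles with column or SDS extraction of DNA for ab177178, ab4729, Active Motif and Diagenode (16 H3K27ac libraries) and for CST-9733 (4 H3K27me3 libraries). The benchmark libraries had 15 cycles and SDS extraction, with 2 replicates each of ab177178 at 1:100, ab4729 at 1:100 and Diagenode at 1:50 for H3K27ac and of CST-9733 at 1:100 for H3K27me3. A first set, also at 15 cycles with SDS extraction and without TSA, held 1 library each of ab177178, ab4729, Active Motif, Diagenode at 1:100, Diagenode at 1:50 and CST-9733 (5 for H3K27ac and 1 for H3K27me3). All groups share the line and its fusion, and no library of cells without the fusion was analysed here. The study calls the 2 benchmark replicates biological. The other libraries have no replicates, so that their spread includes differences between antibodies and conditions.

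Peaks came from 2 callers. The MACS2 height is the fold of the fragment pileup over a genome-wide background, and the SEACR height is the largest coverage in the peak. Fragment totals are stated by the study but are not in the lists and were not used here, and the length of each list is given instead: benchmark H3K27ac lists held 21317 to 34897 MACS2 peaks and 10930 to 15614 SEACR peaks, PCR and extraction H3K27ac lists held 3797 to 10821 SEACR peaks, and H3K27me3 SEACR lists held 65339 to 107101. No 2 lists shared more than 1.25% of their peaks exactly. Promoters of 10 of 10 erythroid and K562 markers carried H3K27ac in at least 4 of the 6 benchmark lists by both callers, against 0 of 4 B cell and 0 of 2 epithelial markers. CD3D was called by MACS2 alone and SPI1 by both callers.

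BCR encodes a signalling protein with a kinase domain, and ABL1 a tyrosine kinase. K562 carries the Philadelphia translocation, in which the 5′ part of BCR is joined to ABL1 from its second exon on, and the fused gene makes the constitutively active kinase that drives chronic myeloid leukaemia. The fusion is known to lie in amplified copies in this line, and NUP214, a nuclear pore gene downstream of ABL1, is known to be joined to XKR3 of chromosome 22. H3K27ac is found at promoters and enhancers in use, and Polycomb repressive complexes deposit H3K27me3 over silent genes. The number of DNA copies was not measured in these lists, more signal for each copy and more copies cannot be told apart in them, and the part of copy number in the results was not tested.

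Sequences from inside the acetylated stretches and from their promoters are shown from the GRCh37 (hg19) reference, as windows of 201 bases around the median summit of benchmark H3K27ac peaks or, for genes, the 201 bases before the outermost annotated start. Capitals mark matches to GATA motifs (AGATAA or AGATAG or TGATAA or TGATAG), AP-1 motifs (TGACTCA or TGAGTCA) or the GC box (GGGCGG) on either strand. The first 4 are introns of the genes of the fusion, chosen among regions found in at least 4 of 6 lists whose window touched no annotated exon, so that peaks in fewer lists or at exons lie nearer to the limits of the acetylation. The tallest summit inside BCR lay at chr22:23566142-23566342 with a MACS2 height of 53.4 in 6 of 6 lists, and the last of these regions in BCR lay at chr22:23622639-23622839 with a height of 21.5 in 6 of 6. The first of these regions after the ABL1 promoter lay at chr9:133617009-133617209 with a height of 9.35 in 5 of 6 lists, and the tallest inside ABL1 lay at chr9:133700396-133700596 with a height of 33.3 in 6 of 6.
BCR intron, tallest region: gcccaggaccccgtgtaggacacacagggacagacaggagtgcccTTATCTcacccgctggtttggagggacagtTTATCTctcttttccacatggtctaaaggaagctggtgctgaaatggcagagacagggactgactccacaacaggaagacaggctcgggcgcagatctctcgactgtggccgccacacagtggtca
BCR intron, last region: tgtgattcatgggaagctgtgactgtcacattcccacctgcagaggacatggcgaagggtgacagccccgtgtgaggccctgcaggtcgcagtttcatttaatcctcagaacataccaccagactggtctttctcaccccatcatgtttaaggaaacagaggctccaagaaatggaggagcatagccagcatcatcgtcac
ABL1 intron, first region after the promoter: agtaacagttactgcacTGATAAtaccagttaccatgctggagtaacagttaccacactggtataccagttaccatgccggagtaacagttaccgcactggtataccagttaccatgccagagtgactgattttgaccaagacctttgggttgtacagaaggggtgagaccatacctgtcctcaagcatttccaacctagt
ABL1 intron, tallest region: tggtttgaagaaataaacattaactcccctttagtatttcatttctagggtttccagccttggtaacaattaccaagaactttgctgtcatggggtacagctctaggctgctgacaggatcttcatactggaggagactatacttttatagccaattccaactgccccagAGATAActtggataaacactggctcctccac

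The upstream windows of ABL1 (chr9:133588229-133588429, plus strand), NUP214 (chr9:134000759-134000959, plus strand) and FAM78A (chr9:134152753-134152953, minus strand) are shown since they belong to genes that the translocations of this line join or carry the tallest acetylation of the chromosome 9 window.
ABL1 upstream: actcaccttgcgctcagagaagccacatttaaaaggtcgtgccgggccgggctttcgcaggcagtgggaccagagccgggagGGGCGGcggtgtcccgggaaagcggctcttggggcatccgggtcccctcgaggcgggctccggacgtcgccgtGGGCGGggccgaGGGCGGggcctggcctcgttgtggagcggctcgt
NUP214 upstream: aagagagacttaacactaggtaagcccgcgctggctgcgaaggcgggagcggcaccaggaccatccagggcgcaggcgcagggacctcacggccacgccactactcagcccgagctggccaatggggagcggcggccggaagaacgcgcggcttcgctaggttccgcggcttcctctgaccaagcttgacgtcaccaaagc
FAM78A upstream: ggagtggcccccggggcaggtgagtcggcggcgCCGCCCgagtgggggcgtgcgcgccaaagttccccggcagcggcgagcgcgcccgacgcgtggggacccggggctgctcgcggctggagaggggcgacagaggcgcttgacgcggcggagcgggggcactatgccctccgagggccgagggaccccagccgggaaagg

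These windows held 2 GATA motifs in the tallest BCR intron region and 1 in each ABL1 intron region, 3 GC boxes upstream of ABL1 and 1 GC box upstream of FAM78A. Of 19229 upstream windows of the same length across protein-coding genes, 15.6% held a GATA motif, 2.80% an AP-1 motif and 46.7% a GC box. Among H3K27ac regions away from promoters that were found in at least 4 of 6 benchmark lists, a GATA motif lay within 201 bases around the summit in 18.8% of 320 neighbourhood regions, against 31.1% of 11582 regions elsewhere on the autosomes, and an AP-1 motif in 3.75%, against 10.2%. At promoters the GC box stood in 56.2% of 64 neighbourhood windows, against 51.8% of 7765 elsewhere. A match is a string of letters and was not tested for binding.

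The neighbourhood carried far more acetylated sequence than the rest of its chromosomes. On chromosome 22, SEACR H3K27ac peaks covered 26.6% and 27.1% of the known bases of the window in the ab177178 libraries, 22% and 16.7% in the ab4729 libraries and 12.1% and 16.1% in the Diagenode libraries. On the rest of chromosome 22 they covered 5.18% and 4.94%, 2.80% and 2.80%, and 2.6% and 3.74% in the same order of libraries. The lowest library of the window stood above the highest of the rest. The mean was 20.1% ± 6.11 in the window and 3.68% ± 1.14 on the rest (SD, n = 6), a ratio of 5.46-fold (log2 2.45 ± 0.31), higher in 6 of 6 libraries (exact two-sided sign-flip permutation, p = 0.03125, the smallest that 6 libraries allow, adjusted p = 0.045 over 36 tests). By MACS2 the shares were 10.4% ± 3.74 and 1.84% ± 0.55 (5.64-fold, 6 of 6, same exact p). On chromosome 9 the SEACR share ranged from 8.92% through a median of 16.1% to 27.2% in the window, against 1.69%, 2.05% and 2.82% on the rest, a ratio of 7.62-fold (6 of 6, same exact p), and the MACS2 ratio was 6.46-fold.

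The PCR and extraction libraries gave larger ratios from shorter lists. Their SEACR H3K27ac peaks covered 1.04% to 9.80% of the chromosome 22 window, with a median of 2.49%, against 0.0716% to 0.264% of the rest, with a median of 0.161%, a ratio of 17.0-fold, higher in 16 of 16 libraries (exact sign-flip permutation, p = 3.1e-05). On chromosome 9 the shares were 0.488% to 12.1%, with a median of 1.63%, against 0.0884% to 0.362% of the rest, a ratio of 10.5-fold (16 of 16, same exact p). The widest coverage was in both ab177178 libraries of 11 cycles. These 16 libraries share a line and repeat each antibody, so that the exact p-values measure agreement between related libraries. In the TSA and first sets the share was higher in the window in each H3K27ac list, by 13.1-fold and 8.69-fold on chromosome 22 by SEACR (n = 4 and 5).

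H3K27me3 was also spread more widely in both windows. On chromosome 22 its SEACR peaks covered 24.6% ± 9.94 of the window and 6.53% ± 5.71 of the rest (SD, n = 7), a ratio of 4.95-fold in 7 of 7 libraries, and on chromosome 9 they covered 22.5% ± 4.91 and 3.74% ± 2.53, a ratio of 7.20-fold in 7 of 7 (exact p = 0.015625 for both, the smallest that 7 libraries allow). The 2 benchmark libraries alone covered 36.8% and 38.3% of the chromosome 22 window, against 13.6% and 15.3% of the rest, and 28.8% and 28.9% of the chromosome 9 window, against 6.69% and 7.48% of the rest.

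**Figure D1:**
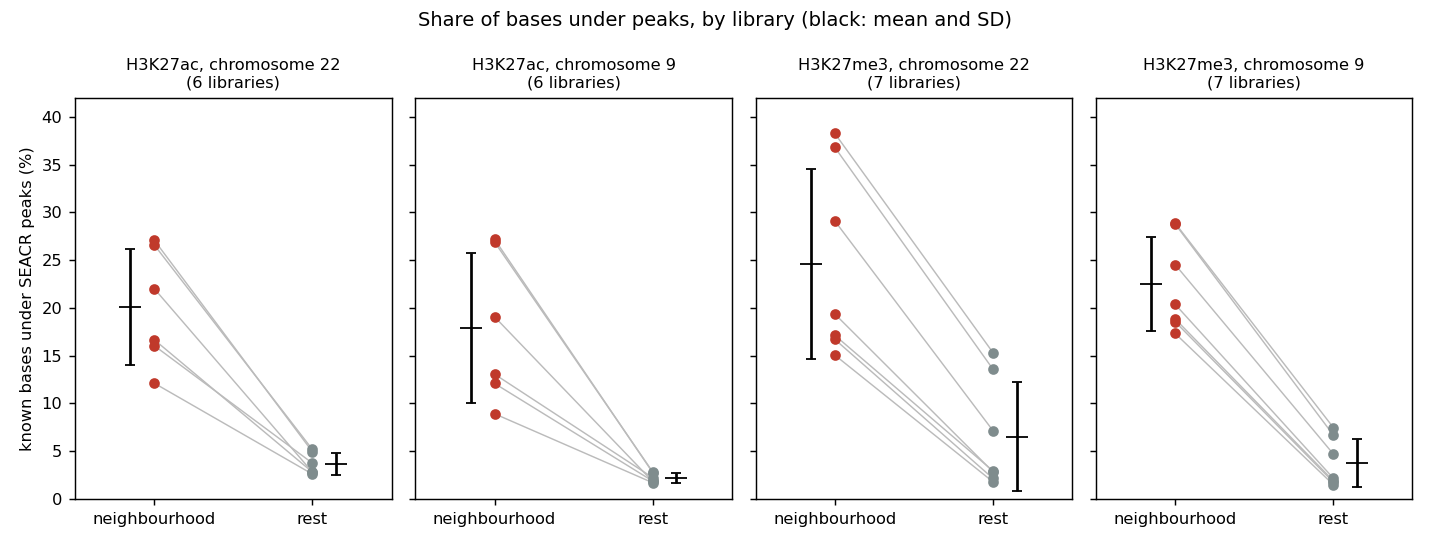
Share of known bases under SEACR peaks (%) in the neighbourhood and on the rest of the same chromosome, 1 point for each library joined by a line, for 6 benchmark H3K27ac libraries and 7 H3K27me3 libraries; black bars are means and SDs. Each library lies higher in the neighbourhood, with means of 20.1% against 3.68% for H3K27ac on chromosome 22.

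The wide coverage came with many peaks. On chromosome 22 the window held 74.7 ± 20.5 benchmark H3K27ac MACS2 peaks per Mb, against 16.3 ± 3.96 on the rest (SD, n = 6, 4.55-fold), and on chromosome 9 it held 79.4 ± 36.4, against 9.80 ± 2.18 (7.52-fold). SEACR, which joins neighbouring signal, gave 23.1 and 8.42 per Mb on chromosome 22 (2.69-fold) and 29.1 and 4.59 on chromosome 9 (5.95-fold). All 4 ratios were above 1 in 6 of 6 libraries (exact p = 0.03125 each). H3K27me3 SEACR peaks stood at 133 ± 31.4 per Mb in the chromosome 22 window, against 41.1 ± 11 on the rest (3.24-fold, 7 of 7, exact p = 0.015625), and at 62.1 ± 25.0 in the chromosome 9 window, against 25.6 ± 3.81 (2.23-fold, 6 of 7, exact p = 0.03125). In the 1 exception, benchmark CST-9733 replicate 2, the chromosome 9 window had 24.4 peaks per Mb, against 25.4 on the rest. H3K27ac peaks by SEACR were also wider, with a median width of 5419 bp in the chromosome 22 window, against 3681 bp, and 4668 bp in the chromosome 9 window, against 3778 bp (6 of 6 for both, exact p = 0.03125). By MACS2 they were not wider: 760 against 824 bp on chromosome 22 (exact p = 0.1875) and 594 against 800 bp on chromosome 9 (narrower in 6 of 6, exact p = 0.03125).

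The median height of called peaks was not raised to match. It was taken over all called peaks, which were more per Mb in the windows and less often at promoters. Of merged MACS2 regions 8.71% lay at promoters in the chromosome 22 window, against 29.7% on the rest, and 8.02% against 22.4% on chromosome 9. The medians therefore do not compare like elements and cannot show whether single elements were taller. Median H3K27ac height in the chromosome 22 window was 9.71 ± 0.23 by MACS2, against 10.8 ± 1.07 on the rest (SD, n = 6, log2 ratio -0.15 ± 0.14, exact p = 0.13), and 25.9 ± 9.84 by SEACR, against 24.2 ± 6.05 (log2 0.05 ± 0.28, exact p = 0.75). In the chromosome 9 window it was lower in 6 of 6 libraries by both callers, at 8.74 against 11.1 for MACS2 (log2 -0.35 ± 0.15) and 17.5 against 27 for SEACR (log2 -0.61 ± 0.11, exact p = 0.03125 for both). Peaks at promoters of protein-coding genes went the other way on chromosome 22, with a median MACS2 height of 34.3 ± 10.2, against 14.2 ± 2.28 on the rest (2.33-fold, 6 of 6, exact p = 0.03125), and stayed lower on chromosome 9 (10.8 against 16.9, 6 of 6, same exact p). In the PCR and extraction libraries the chromosome 22 peaks were taller by 1.35-fold (6.75 against 4.81, above in 14 of 16, exact p = 0.00012), while those on chromosome 9 were 1.07-fold (exact p = 0.396). H3K27me3 peaks were taller on chromosome 22 by 1.43-fold (6.57 against 4.57, 7 of 7, exact p = 0.015625), and on chromosome 9 by 1.28-fold (6.0 against 4.57, exact p = 0.0625), which did not pass.

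The marks differed in this height ratio on chromosome 9. Benchmark H3K27me3 libraries had a mean log2 ratio of 0.39 ± 0.55 (n = 2) and benchmark H3K27ac libraries one of -0.61 ± 0.11 (n = 6), a difference of 1.00 (exact permutation of the mark among 8 libraries, p = 0.0357, adjusted p = 0.0495). With the replicate number as a block the difference was also 1.00 and p was 0.0625, and in the PCR and extraction libraries it was 0.22 (exact p = 0.328). On chromosome 22 the difference was 0.44 (exact p = 0.143).

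The peaks were not spread evenly along the windows. Bins of 100 kb were ranked by their number of benchmark H3K27ac MACS2 peaks among 26901 autosomal bins with mostly known sequence, and the upper hundredth (0.97% of bins) began above 11 peaks. It held 27 of the 92 bins of the neighbourhood, of which 22 of 78 were on chromosome 22, against 1 of 272 on the rest of it, and 5 of 14 were on chromosome 9, against 11 of 1199. By SEACR it held 13 of 92 (0.94% of all bins), in the PCR and extraction libraries 31 of 92 (0.97% of all bins) and for H3K27me3 in 7 libraries 14 of 92 (0.963% of all bins), each of the 14 on chromosome 22. For H3K27me3 in the 2 benchmark libraries alone it held 2 of 92 (0.825% of all bins). Ranked by median height instead, 6 of 58 MACS2 bins (10.3%) and 14 of 46 SEACR bins (30.4%) of the neighbourhood stood above the rest of their chromosome in 6 of 6 libraries, against 23.7% and 28.7% of all such bins of chromosomes 9 and 22.

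The bin with the most H3K27ac MACS2 peaks of all autosomes was in the neighbourhood, at 21.9 to 22 Mb of chromosome 22, with 28 peaks a library and H3K27ac SEACR peaks over 75.5% of it. By SEACR the highest H3K27ac bin lay outside the neighbourhood, on chromosome 1 in the benchmark libraries (8.5 peaks) and on chromosome 4 in the PCR and extraction libraries (13.6 peaks). The bin at 21.9 Mb holds UBE2L3, a ubiquitin-conjugating enzyme, YDJC, CCDC116 and SDF2L1, a protein of the endoplasmic reticulum. Next came the bin of RAB36 and the start of BCR with 27.8 peaks, and among the 5 highest of the neighbourhood were also that of TANGO2, DGCR8 and TRMT2A with 24 and that of NUP214 on chromosome 9 with 22.8. The lowest bins that had any peak held POTEH, CECR2, XKR3 and HMCN2, with 0.167 to 0.333 peaks a library, and H3K27me3 covered 69.7% of the CECR2 bin and 60.5% of the HMCN2 bin. Dense bins were not particular to the chromosome 9 window, since the rest of that chromosome reached 21.0 peaks in the bin at 140.1 to 140.2 Mb.

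**Figure D2:**
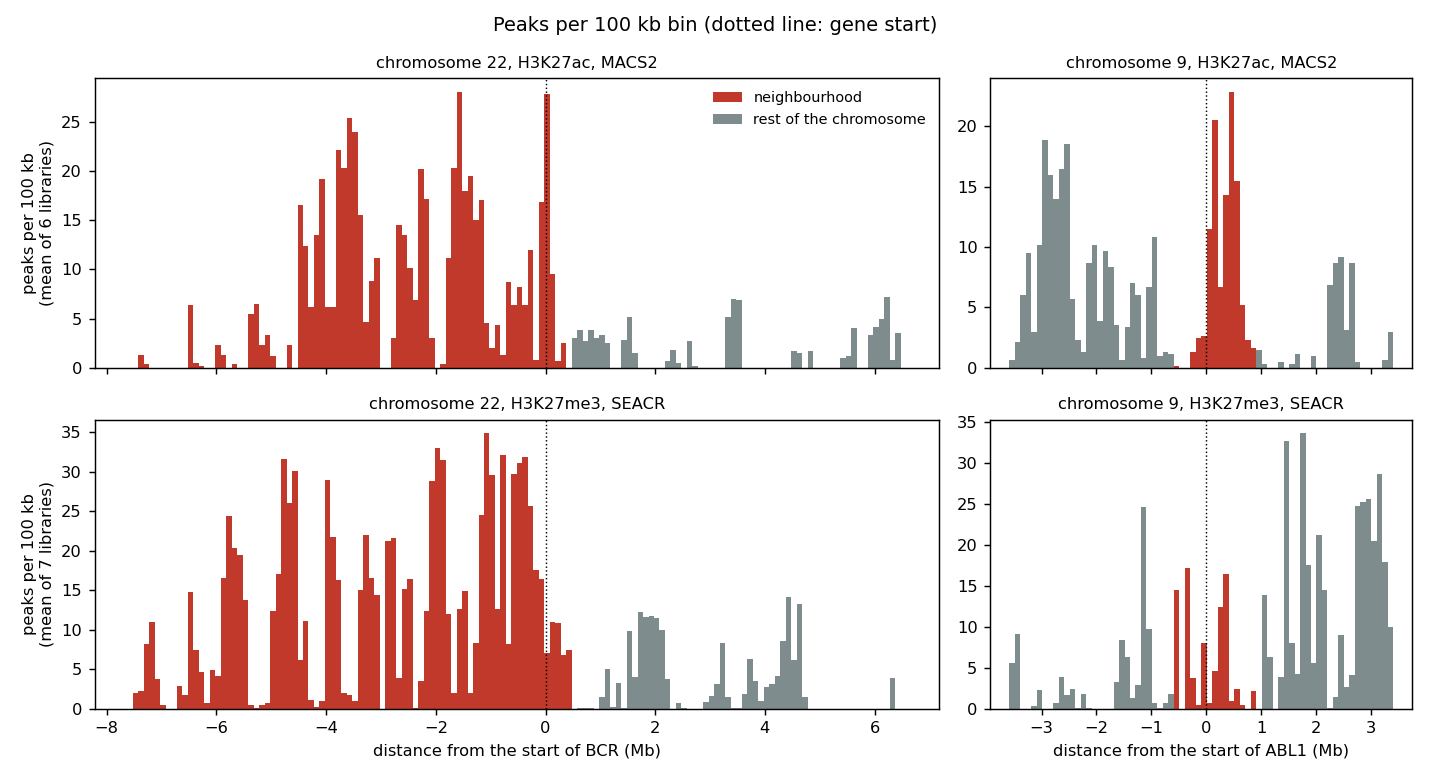
Mean number of peaks per 100 kb bin (y axis) against distance from the start of BCR or ABL1 in Mb (x axis) for H3K27ac by MACS2 in 6 benchmark libraries and H3K27me3 by SEACR in 7 libraries, with the neighbourhood in red and the rest of the chromosome in grey. H3K27ac falls off just after the start of BCR and rises just after that of ABL1, with the highest bin at 28 peaks.

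Read along the chromosomes, H3K27ac came in blocks whose limits were set after their values were seen and carry no test. On chromosome 22 the first 3 Mb of the window, which hold the cat eye region, had 12.1 ± 3.73 MACS2 peaks per Mb (SD, n = 6). The next block, over the 22q11.2 deletion region and on towards the immunoglobulin lambda locus, had 129 ± 32.1. The 1 Mb of the immunoglobulin lambda light chain locus (annotated genes at chr22:22380474-23265206) had 70.7 ± 39.7. Its MACS2 means were 117 in ab177178, 65.5 in ab4729 and 29.5 in Diagenode libraries, and the antibodies did not overlap there by MACS2. By SEACR the ab4729 libraries had 12 and 47 per Mb, on both sides of the 33 and 40 of ab177178. Again by MACS2, the 0.34 Mb from GNAZ to inside BCR had 162 ± 32.4, and the 0.36 Mb after it to the end of the window had 8.80 ± 3.69. On chromosome 9 the block up to the start of ABL1 had 14.8 ± 3.35, the 0.60 Mb from ABL1 over NUP214 to FAM78A had 152 ± 72.4 and the last 0.30 Mb had 30.6 ± 21.0. The PCR and extraction libraries ordered the ends alike, with 73.3 SEACR peaks per Mb from GNAZ into BCR, against 0.174 after it, and 50.4 from ABL1 to FAM78A, against 0.972 before it.

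H3K27me3 was set against the same limits by the share of bases covered. Its benchmark SEACR peaks covered 27.4% of the first block of chromosome 22, 36.2% of the second, 68.7% of the immunoglobulin block, 47.0% of the block into BCR and 33.6% of the block after it, and on chromosome 9 they covered 32.8%, 39.1% and 2.44%. In the 4 PCR and extraction libraries the shares were 8.37%, 18.4%, 36.0%, 34.4% and 3.99% on chromosome 22, and 9.99%, 34.5% and 0.608% on chromosome 9. In both sets H3K27me3 thus covered more of the block into BCR than of the block after it, and more of the block from ABL1 to FAM78A than of those beside it, as H3K27ac did, with a wider gap in the PCR and extraction libraries. The immunoglobulin block had the most H3K27me3 of the chromosome 22 blocks in the benchmark libraries. In the PCR and extraction libraries it and the block into BCR differed by less than their spread (SD 5.08 and 2.51, n = 4). By MACS2, benchmark H3K27ac was denser in the blocks on either side of the immunoglobulin block. By SEACR the benchmark means were 39.0 ± 9.99 peaks per Mb before it, 25.3 ± 16.7 in it and 29.4 ± 11.3 after it (SD, n = 6). The ab177178 libraries had SEACR means of 36.5 in the immunoglobulin block and 25 in the block after it. PCR and extraction libraries had 36.6 ± 50.0 H3K27ac SEACR peaks per Mb in it (SD, n = 16). They had 34.4 ± 22.9 in the block before it and 73.3 in the block after it.

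The step inside BCR was sharp in each benchmark list. BCR lies at chr22:23521891-23660224 on the plus strand, and its last H3K27ac peak ended at 23631773 to 23632691 by MACS2 and at 23632742 to 23633202 by SEACR, which is 110 to 111 kb from its start and within the gene. Acetylation filled most of the gene up to there: SEACR H3K27ac peaks covered 69.1% to 79.7% of the gene, and MACS2 gave 17 to 45 peaks a library. The next H3K27ac peak was 113 to 231 kb further on by MACS2 and 229 to 230 kb by SEACR. In the 10 bins of 10 kb from 23640001 to 23740000, no H3K27ac MACS2 list had a peak midpoint and 1 of 31 SEACR lists did (ab177178 with 11 cycles and SDS extraction, ending at 23653456), while each of these bins had H3K27me3 peaks in 3 to 7 of 7 lists. In the PCR and extraction lists the last peak inside BCR ended 72.4 to 132 kb from its start, and the first Active Motif library had 0 peak midpoints in BCR and in ABL1.

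ABL1 showed the converse. The gene lies at chr9:133588430-133763062 on the plus strand, its promoter had an H3K27ac peak in 6 of 6 benchmark lists by both callers, and none of the H3K27ac lists or the H3K27me3 SEACR lists had a peak midpoint in the 20 kb from 133590001 to 133610000. Acetylation then set in 21.8 to 52.9 kb from the start of the gene by SEACR and 23 to 53.1 kb by MACS2. The gene held 8 to 39 further MACS2 peaks a library, with a second gap among them. No H3K27ac list had a peak midpoint from 133670001 to 133680000, and 1 MACS2 and 1 SEACR list had one from 133680001 to 133690000. Diagenode replicate 1 had the fewest (8) and set in last, and both ab177178 libraries had the most (39 and 37). In the PCR and extraction libraries 0 of 16 had a peak in the first 20 kb of ABL1 and 15 of 16 had 1 further on. The positions of the breakpoints are not in the files, and the steps were not tested against them.

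**Figure D3:**
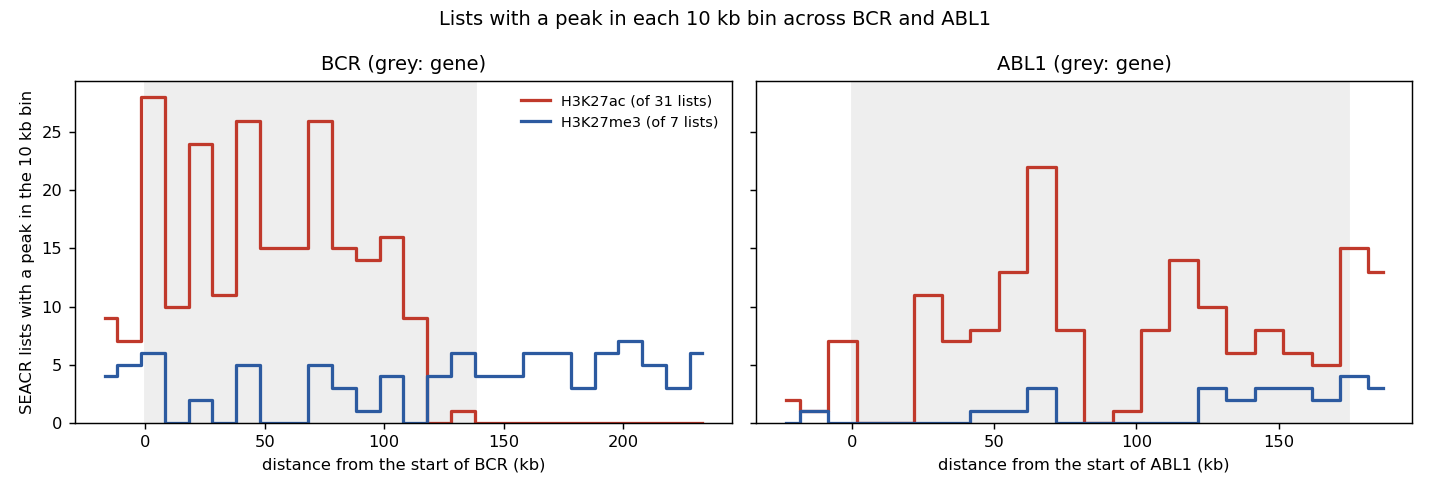
Number of SEACR lists with a peak in each 10 kb bin (y axis) against distance from the start of BCR or ABL1 in kb (x axis), for H3K27ac in 31 lists and H3K27me3 in 7 lists; grey marks the gene. H3K27ac stops about 111 kb into BCR with H3K27me3 in 3 to 7 lists beyond, and it is at 0 lists after the ABL1 promoter until about 22 kb into the gene.

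With the windows split at the end of BCR and the start of ABL1, the sides that the fusion joins (chromosome 22 up to the end of BCR and chromosome 9 from the start of ABL1) held the dense H3K27ac. On chromosome 22 there were 77.7 ± 21.5 MACS2 peaks per Mb on the fusion side and 9.32 ± 3.91 on the other, and on chromosome 9 there were 111 ± 53.5 and 12.9 ± 3.43 (SD, n = 6, higher in 6 of 6). The PCR and extraction libraries had 24.8 ± 21.2 SEACR peaks per Mb on the chromosome 22 fusion side and 0 on the other in each of 16 lists. For H3K27me3 the number of peaks and the share of bases gave different orders. The benchmark libraries had 86.8 SEACR peaks per Mb on the fusion side, against 144 on the other of chromosome 22, while the share of bases covered was 37.7% ± 0.88, against 34.2% ± 4.26 (SD, n = 2). On chromosome 9 both were lower on the fusion side, at 13.7 against 60.4 peaks per Mb and 26.5% against 33.7% of bases. The PCR and extraction libraries had more on the fusion side of chromosome 22 by both measures (159 against 61.1 per Mb and 17.7% against 3.91% of bases, 4 of 4 libraries), and on chromosome 9 they had fewer peaks (63.1 against 116 per Mb) but more bases (22.9% against 10.3%) on the fusion side in 4 of 4. Median H3K27ac height did not differ beyond the spread between the sides, at 9.61 and 10.1 by MACS2 (exact p = 0.62) and 24.6 and 20.2 by SEACR (exact p = 0.281), where the other side had as few as 5 MACS2 peaks in a library. At promoters the sides could hardly be compared, since the other side had 0 H3K27ac promoter peaks on chromosome 22 and 1 to 3 on chromosome 9 in each benchmark list.

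Promoters, taken as the outermost annotated start with 1.5 kb on each side, were called for H3K27ac where at least 4 of 6 benchmark lists had a peak, and for H3K27me3 where both had one. Of the 123 protein-coding genes of the neighbourhood, 74 (60.2%) were called for H3K27ac by MACS2 and 66 (53.7%) by SEACR, against 47.2% and 40.1% of all 20162 protein-coding genes. For H3K27me3 the counts were 74 (60.2%) and 73 (59.3%), against 21.7% and 21.3% of all. By SEACR 29 of 102 promoters of the chromosome 22 window carried both marks, 28 H3K27ac alone, 35 H3K27me3 alone and 10 neither, and on chromosome 9 the counts were 4, 5, 5 and 7 of 21. These classes were not counted outside the windows, so that they have no background share. Gene bodies filled up too: in the chromosome 22 window H3K27ac SEACR peaks covered over 50% of the body of 42 of 102 genes, against 21 of 348 on the rest, and H3K27me3 of 40, against 37. The median body was 41.2% under H3K27ac in the window, against 3.73% on the rest of chromosome 22, and 7.60% in the chromosome 9 window, against 1.8%.

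The tallest acetylated promoter was the one that CDC45, a subunit of the replicative helicase, shares with UFD1, which helps to extract ubiquitylated proteins. Its MACS2 height was 305 and 307 in the ab177178 libraries, 100.4 and 199 in the ab4729 libraries and 308 and 390 in the Diagenode libraries, a mean of 268 ± 102 (SD, n = 6). FAM78A followed with 209 ± 75.4 and PRAME, a cancer-testis antigen, with 191 ± 41.0. NUP214 stood at 144 ± 31.5, RANBP1 and TRMT2A, which share a promoter, at 114 ± 37.2, and CRKL, an adaptor that BCR-ABL1 is known to phosphorylate, at 112 ± 45.8. The order of these genes shifted between libraries, and the ranges of FAM78A, PRAME and NUP214 overlapped. ab4729 replicate 1 was the lowest of the 6 libraries at each of them. Each of these genes was also among the first 10 by SEACR.

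BCR and ABL1 were lower at the promoter than the genes above. Their bodies were more covered by H3K27ac than the median body of their window, 41.2% on chromosome 22 and 7.60% on chromosome 9. The BCR promoter had a MACS2 height of 70.8 and 69.3 in the ab177178 libraries, 35.6 and 47.4 in the ab4729 libraries and 54.4 and 62.1 in the Diagenode libraries (56.6 ± 13.6), and the ABL1 promoter had 27.4 and 27.5, 10.2 and 17.9, and 28.6 and 32.9 (24.1 ± 8.39). The groups did not overlap, with BCR above ABL1 in each library. BCR was 75.6% ± 3.93 under H3K27ac SEACR peaks and 9.70% ± 2.38 under H3K27me3 (n = 2), ABL1 27.5% ± 15.4 and 1.06% ± 0.59, and NUP214 48.3% ± 20.8 and 0.531% ± 0.090. ABL1 bodies ranged widely by antibody, at 44.7% and 45.2% in ab177178, 29.6% and 12.8% in ab4729 and 9.19% and 23.5% in Diagenode libraries. XKR3 had no promoter peak of either mark in any of the 8 benchmark libraries, and 1 MACS2 H3K27ac peak in its body in Diagenode replicate 2.

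**Figure D4:**
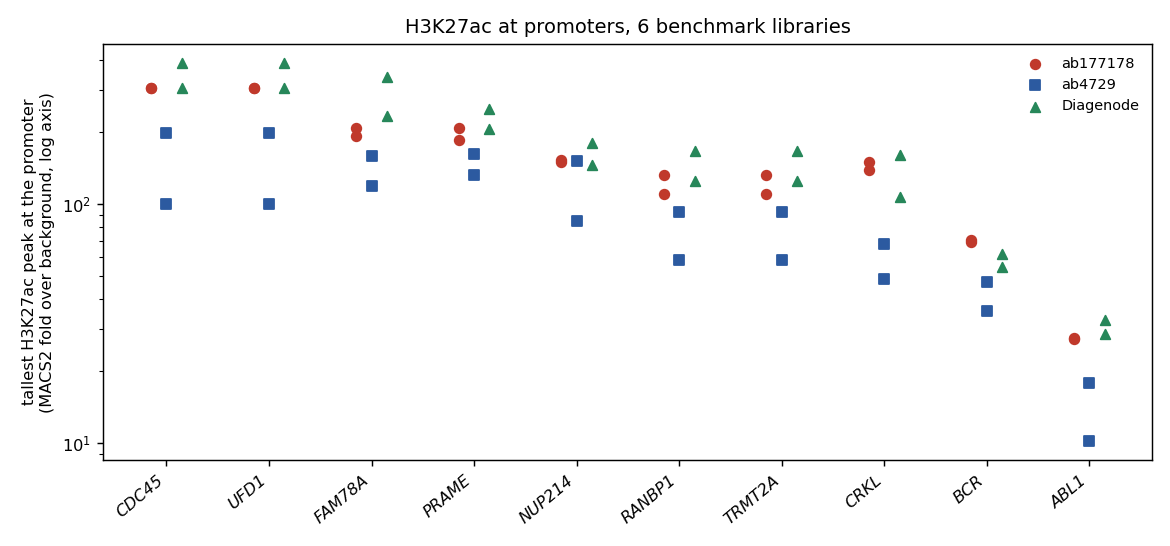
MACS2 height of the tallest H3K27ac peak at the promoter (fold over background, log axis) for 8 of the 10 genes with the tallest promoters and for BCR and ABL1, 1 point for each of 6 benchmark libraries with the antibody as the symbol. Heights run from 390 at CDC45 down to 10.2 at ABL1, and ab4729 replicate 1 is the lowest point of each gene.

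The gene lists are given by block and read against all protein-coding genes, of which 40.1% had an H3K27ac promoter and 21.3% an H3K27me3 promoter by SEACR. No difference between lists was tested, and genes with both marks or with neither were not counted over all protein-coding genes. Of 40 genes of the 22q11.2 deletion region, the interval lost in DiGeorge syndrome, 32 had an H3K27ac promoter by SEACR, 22 an H3K27me3 promoter, 16 both and 2 neither. AIFM3 (55.1% of the body under H3K27ac, 77.0% under H3K27me3) and CLDN5, a tight junction protein (79.2% and 56.1%), carried both marks, while ARVCF, a catenin (75.6% and 3.25%), and CLTCL1, a clathrin heavy chain (22% and 2.81%), were mainly acetylated. Of 16 genes of the cat eye region, 4 had H3K27ac, 9 H3K27me3, none both and 3 neither. ATP6V1E1, a proton pump subunit, and BCL2L13, a BCL2 relative, shared an acetylated promoter (MACS2 height 74.7 ± 17.6), BID, a cell death mediator, had one of 16.3 ± 3.46, and ADA2, an extracellular adenosine deaminase, had no H3K27ac and 88.4% of its body under H3K27me3. Of 21 genes from HIC2 to BCR and IGLL1, 13 had H3K27ac, 17 H3K27me3, 9 both and none neither: CCDC116 was 97.4% under H3K27ac and 37.8% under H3K27me3. Of 16 chromosome 9 genes, 8 had H3K27ac, 7 H3K27me3, 4 both and 5 neither, with AIF1L (59.8% and 98.5%) under both marks and ASS1, an enzyme of arginine synthesis (2.85% and 3.91%), and EXOSC2, an exosome subunit (7.60% and 0), under little of either. RAPGEF1 starts outside the window and was not counted.

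In all, 15 of the 123 protein-coding gene bodies of the neighbourhood lay wholly under H3K27me3 in both benchmark libraries by SEACR. Wholly covered bodies were not counted outside the windows, so that these 15 have no background share. The first 10 of them by alphabet were GNAZ, a G protein alpha subunit, LAMC3, a laminin chain, FIBCD1, a receptor for acetylated sugars, AL354898.1, CCDC188, and the duplicated genes GGTLC2, GGTLC3, FAM246A, FAM246B and FAM246C, whose near-identical copies make the placing of their reads uncertain. Some of these bodies were also acetylated, and by how much depended on the library. GNAZ was 93.4% and 90.2% under H3K27ac SEACR peaks in the ab177178 libraries, 82.2% and 26.4% in the ab4729 libraries and 12.1% and 23.1% in the Diagenode libraries. FIBCD1 was 62.2% and 75.4%, 56.7% and 16.3%, and 0 and 0 in the same order, and LAMC3 was 35.1% and 36.4%, 33.7% and 0, and 11.4% and 5.88%. Their promoters were low or at 0 for H3K27ac, with MACS2 means of 3.52 for GNAZ, 4.06 for FIBCD1 and 0 for LAMC3.

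Bases under both marks were far more common in the neighbourhood, where each mark alone also covered more bases. Of the bases under benchmark H3K27ac SEACR peaks in the chromosome 22 window, 24.8% and 25.9% in the ab177178 libraries, 25.3% and 14.1% in the ab4729 libraries and 8.29% and 8.93% in the Diagenode libraries were also under H3K27me3 peaks of both CST-9733 libraries. On the rest of chromosome 22 the share was 0.0721% to 0.91%. The means were 17.9% ± 8.40 and 0.348% ± 0.307 (SD, n = 6), and on chromosome 9 they were 24.1% ± 9.77 and 0.975% ± 0.337, higher in the neighbourhood in 6 of 6 libraries on both chromosomes (exact sign-flip permutation, p = 0.03125). In each CST-9733 library alone, H3K27me3 peaks covered 36.8% and 38.3% of all known bases of the chromosome 22 window. They covered 13.6% and 15.3% of the rest of chromosome 22. On chromosome 9 it was 28.8% and 28.9% of the window, against 6.69% and 7.48% of the rest. The share among H3K27ac bases was below these, except in some libraries in the chromosome 9 window (13.9% to 37.7%). That difference was not tested. The Diagenode libraries were the lowest on both chromosomes, and libraries of different cells cannot show whether the marks share a nucleosome or a copy.

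**Figure D5:**
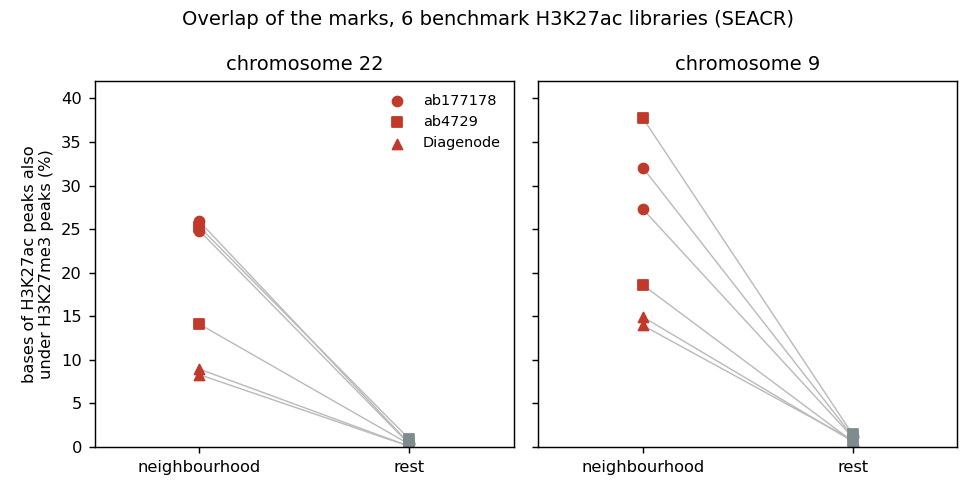
Share of bases under H3K27ac peaks that also lay under H3K27me3 peaks of both benchmark libraries (%, SEACR) in the neighbourhood and on the rest of the chromosome, 1 point for each of 6 benchmark H3K27ac libraries with the antibody as the symbol. Neighbourhood shares run from 8.29% to 37.7%, and shares on the rest stay below 1.45%.

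The H3K27ac regions of the neighbourhood lay at promoters in a smaller share, and a smaller share of them was found in all 6 lists. Merged over the 6 benchmark MACS2 lists there were 1050 regions, of which 8.57% lay at promoters, 61.7% elsewhere in genes and 29.7% between genes, against 29.7% at promoters for 713 regions on the rest of chromosome 22 and 22.6% for 39252 on the other autosomes. Regions found in 6 of 6 lists made up 20.3%, against 29.6% and 31.1%, and those found in 1 list alone 33.6%, against 33.9% and 31.3%. Of the promoter regions of the chromosome 22 window, 45 of 73 were in 6 of 6 lists, against 114 of 212 on the rest. Away from promoters it was 142, among 473 in genes and 292 between genes, against 97, among 359 and 142. On chromosome 9, 5 of 17 promoter regions of the window were in 6 of 6 lists, against 255 of 418 on the rest. Away from promoters it was 21, among 175 in genes and 20 between genes, against 281, among 1058 and 389. Within promoter regions, the lower recurrence was thus seen on chromosome 9 and not on chromosome 22. These shares were not tested.

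The conditions of the study did not move these ratios past the threshold. Over 8 pairs of libraries of the same antibody and extraction, the log2 ratio of covered share, neighbourhood over rest, averaged 2.89 at 13 cycles and 3.90 at 11 cycles on chromosome 9, a difference of -1.01 ± 0.98 (lower in 6 of 8 pairs, exact sign-flip permutation, p = 0.03125, adjusted p = 0.1875 over 12 tests), and peaks per Mb differed by -1.10 (same exact p). On chromosome 22 the covered share averaged 3.96 at 13 cycles and 4.22 at 11 cycles (exact p = 0.406). Column extraction averaged 4.03 and SDS extraction 4.15 on chromosome 22 (exact p = 0.461), and 3.59 and 3.21 on chromosome 9 (exact p = 0.25). TSA and untreated partners averaged 3.71 and 2.99 on chromosome 22 (3 of 4 pairs higher) and 2.89 and 2.59 on chromosome 9 (2 of 4), where 4 pairs cannot go below an exact p of 0.12.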

How the data were processed

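CUT&Tag libraries of K562 were given as 56 peak lists, 18 by MACS2 and 38 by SEACR. According to the submitters' processing notes and the study's methods, the authors used Trim Galore (0.6.6) for trimming, Bowtie2 (2.2.9) for alignment to hg19, Picard (2.6.0) for duplicates, and SAMtools (1.3.1) and bedtools (2.25.0) before peaks were called without a control. Lists of the TSA and of the PCR and extraction libraries came from downsampled reads. Deposited MACS2 columns hold the fold (ratio) of pileup over a genome-wide background, −log10 p-values and q-values, a score that is 10 times −log10 q, and the summit offset; the authors' H3K27ac lists are narrow and their H3K27me3 lists broad. Deposited SEACR columns hold the fragment coverage signal, summed over the peak and at its maximum. Which SEACR mode was used differs between parts of the study's text. Blacklisted regions were not removed, and 1 peak that ran past a chromosome end was kept.

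Members were peaks with midpoints in the windows; bases without known sequence were left out of shares and of peaks per Mb, and genes came from GENCODE on GRCh37 and RefSeq names. Each library gave its own log2 ratio, neighbourhood over the rest of the chromosome, and libraries were tested by exact two-sided sign flips or permutations, with p-values adjusted by Benjamini-Hochberg over 36 tests (12 for conditions). All libraries share a line and many share an antibody, so that these p-values measure agreement between libraries. They do not show how unusual the windows are among windows of their size. On simulated data of 6 libraries the sign flip called 3.67% of 300 sets without a difference and 99.3% of 300 sets with a log2 difference of 1. Analyses used scipy 1.17.1, numpy 2.4.6 and pandas 2.3.3 under Python 3.11.15, and figures matplotlib 3.10.9. The windows, gene lists and tests were chosen with earlier results of these data known. Named genes were BCR, ABL1, NUP214 and XKR3, the 10 tallest H3K27ac promoters, 10 bodies with the most H3K27me3 (ties by alphabet), the 5 highest and 5 lowest bins, and up to 4 genes by alphabet of each list; HIC2, IGLL1 and RAPGEF1 are named as limits only, and a few items among these were left out. Alternatives were stronger peaks (MACS2 q of 1e-10 or below, or the upper 50% of a SEACR list), geometric means, other reference regions, promoter peaks, the window without the immunoglobulin lambda locus, peaks merged within 1000 bp, other promoter widths and bin sizes, the replicate block and leaving out each replicate. Peaks per Mb, widths, bases under both marks, covered shares of the PCR and extraction libraries, bins by number, blocks, steps, covered shares of the sides and the covered shares under the conditions were added after the data were seen.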

Additional observations from a re-analysis of the deposited data

Results flagged for a closer look

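Of 42 groups of 4 to 7 libraries examined for a library far from the others, 2 held one, where chance gives about 1 in 20. The ab177178 TSA library had a log2 ratio of median H3K27ac MACS2 height on chromosome 9, neighbourhood over rest, of 0.78, against -0.09 to 0 in the other 3 TSA libraries. The Diagenode 1:100 TSA library had a log2 SEACR height ratio on chromosome 22 of 0.85, against 0.22 to 0.32 in the others. The height ratio on chromosome 9 differed between the marks in the benchmark libraries by 1.00, H3K27me3 minus H3K27ac (exact permutation, p = 0.0357).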

How the results depend on the processing

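Of 121 alternatives other than leaving out a replicate, 98 were judged the same as the reported result. For tested results this meant the same direction and the same side of the threshold. Promoter and bin counts were judged by their size alone. Where a reported result had no p-value, its alternatives were counted as the same. The share of bases covered and the promoter counts were judged the same under each alternative run. Height ratios of H3K27ac depended on the peaks and the reference chosen. With stronger peaks alone the log2 ratio was -0.16 for MACS2 on chromosome 22 (exact p = 0.03125), -0.46 for SEACR on chromosome 9 (exact p = 0.0625) and 0.52 for H3K27me3 on chromosome 9 (exact p = 0.015625), and the 13 minus 11 cycle difference turned to 0.12 on chromosome 22 and -0.12 on chromosome 9. With geometric means the ratio was 0.25 for SEACR on chromosome 22 (exact p = 0.03125), 0.21 for the PCR and extraction libraries on chromosome 9 (exact p = 0.0074) and 0.67 for H3K27me3 on chromosome 9 (exact p = 0.015625), the difference between the fusion side and the other side was 0.17 for MACS2 and 0.54 for SEACR, and column minus SDS on chromosome 22 turned to 0.017. Against all other autosomes chromosome 22 stood at -0.27 for MACS2 (exact p = 0.03125) and -0.20 for SEACR (exact p = 0.1875). At promoters chromosome 22 stood at 1.22 for MACS2 and 1.34 for SEACR, chromosome 9 at 1.27 for H3K27ac in the PCR and extraction libraries (exact p = 0.00018) and 1.27 for H3K27me3 (exact p = 0.015625), and the fusion side above the other by 1.22 for MACS2 and 1.63 for SEACR, where the other side had only 1 to 3 promoter peaks a list, all on chromosome 9. The fusion side alone gave 0.54 for H3K27me3 on chromosome 9 (exact p = 0.046875). The cause of these changes was not tested. In 200 kb bins, 8 stood above the chromosome by SEACR, against 14 of 100 kb, with fewer bins to count.

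Replicate numbers name libraries of different antibodies and no label ties a number to a shared culture. With the replicate block the mark difference on chromosome 9 was 1.00 (exact permutation, p = 0.0625) and on chromosome 22 0.44 (exact permutation, p = 0.1875), and within the PCR and extraction libraries the chromosome 9 difference was 0.22.

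Leaving out each replicate in turn leaves 5 of 6 H3K27ac libraries, which cannot go below an exact p of 0.0625, so that no such p passes. The log2 ratios of covered share then ranged from 2.36 to 2.59 (MACS2) and 2.34 to 2.52 (SEACR) for H3K27ac on chromosome 22 and from 2.6 to 2.82 and 2.84 to 3.04 on chromosome 9, and for H3K27me3 from 2.45 to 2.47 and 2.97 to 3.0. Those of H3K27ac peaks per Mb ranged from 2.06 to 2.25 and 1.3 to 1.5 on chromosome 22 and from 2.81 to 3.05 and 2.49 to 2.65 on chromosome 9, and those of H3K27me3 from 1.82 to 1.84 and 1.3 to 1.36. Those of H3K27ac height ranged from -0.18 to -0.11 and -0.022 to 0.10 on chromosome 22 and from -0.38 to -0.30 and -0.64 to -0.58 on chromosome 9, those of H3K27me3 height from 0.52 to 0.53 and 0.29 to 0.42, and the difference between the sides from -0.11 to 0.021 and 0.12 to 0.31. Those of H3K27ac width ranged from -0.14 to -0.07 and 0.53 to 0.58 on chromosome 22 and from -0.48 to -0.36 and 0.26 to 0.32 on chromosome 9, those of H3K27me3 width from 0.19 to 0.22 and 0.37 to 0.46, and the mark difference from 0.39 to 0.51 on chromosome 22 and 0.61 to 1.39 on chromosome 9.

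The lists hold peaks and no fragment totals, so that a stretch without a peak is one in which none passed the caller, and shorter lists miss more of it.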
